A study of Rattus norvegicus with 8 samples.

Results

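The genes described here were 8 genes of cholesterol synthesis and its control, out of 15159 rat genes that could be named on the array. Their rule is a list of gene names: the synthesis enzymes *Hmgcs1*, *Idi1*, *Fdft1*, *Sqle*, *Cyp51* and *Dhcr7*, and the regulators *Srebf2* and *Insig1*. Hypothalamic RNA of male F344N rats was compared between 4 rats injected with all-trans retinoic acid (RA) and 4 injected with vehicle. The methods of the study describe a single intracerebroventricular (ICV) injection of 5 µl, tissue taken 24 hrs later and a short photoperiod (SD, 8 h:16 h light:dark) for both groups. The sample labels give the RA as 1e-05 M and the vehicle as saline, whereas the methods give a higher concentration and a vehicle of DMSO in saline. No age was given in the sources used here. Blocks of 60 to 80 mg held the arcuate nuclei together with the surrounding hypothalamus, so every value is an average over neurons, glia, ventricular lining and vessels, and fewer cells of a type cannot be told apart from less RNA per cell.

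Cholesterol is built from acetyl-CoA through mevalonate, isoprenoid units, squalene and lanosterol. The genes of this route are switched on together by the transcription factor SREBP2, the product of *Srebf2*, which is held back by INSIG proteins while the membranes of the endoplasmic reticulum are rich in sterol. The brain makes its own cholesterol, because lipoproteins of the blood do not cross the blood-brain barrier, and oligodendrocytes use much of it for myelin. All-trans retinoic acid, the active form of vitamin A, acts through nuclear receptors, and the study asked which hypothalamic genes lie downstream of it.

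SREBP2 works together with general factors bound near the start of its target genes. *Cyp51* and *Dhcr7* were also searched but held no CCAAT match, and the sequences upstream of the 4 genes with one are shown. Each is the 250 bases before the annotated start, from RefSeq on build GRCr8, written 5′ to 3′ on the strand of the gene: *Hmgcs1* on the plus strand at chr2:53382054-53382303, *Idi1* on the minus strand at chr17:66547525-66547774, *Srebf2* on the plus strand at chr7:115543057-115543306 and *Insig1* on the minus strand at chr4:8057770-8058019. Capitals mark CCAAT (the CCAAT box, here always as ATTGG of the opposite strand) and TCACNCCA (the core of a sterol regulatory element).
Hmgcs1: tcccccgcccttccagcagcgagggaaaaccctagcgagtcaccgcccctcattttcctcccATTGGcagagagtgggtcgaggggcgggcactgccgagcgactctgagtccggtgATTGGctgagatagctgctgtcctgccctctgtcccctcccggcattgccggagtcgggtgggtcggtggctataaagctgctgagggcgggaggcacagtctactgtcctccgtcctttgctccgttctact
Idi1: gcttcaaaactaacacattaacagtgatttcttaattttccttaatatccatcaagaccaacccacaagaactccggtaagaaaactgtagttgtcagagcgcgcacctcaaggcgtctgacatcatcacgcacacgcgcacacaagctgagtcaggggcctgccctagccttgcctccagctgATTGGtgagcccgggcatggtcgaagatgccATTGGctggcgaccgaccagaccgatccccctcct
Srebf2: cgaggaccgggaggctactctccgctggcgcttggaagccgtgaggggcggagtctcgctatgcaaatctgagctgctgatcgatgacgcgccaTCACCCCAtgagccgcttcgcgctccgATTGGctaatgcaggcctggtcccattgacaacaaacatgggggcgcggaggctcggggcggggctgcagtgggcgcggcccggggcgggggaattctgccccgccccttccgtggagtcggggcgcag
Insig1: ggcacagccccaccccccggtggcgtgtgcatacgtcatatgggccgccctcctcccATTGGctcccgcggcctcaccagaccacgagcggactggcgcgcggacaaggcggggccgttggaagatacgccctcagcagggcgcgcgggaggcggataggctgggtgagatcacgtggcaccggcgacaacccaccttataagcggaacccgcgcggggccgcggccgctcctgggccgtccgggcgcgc
Both strands were searched for these letters, and for GGGCGG (the GC box) and AGGTCA (a nuclear receptor half-site), in 33469 promoters of the same length, among them those of 6 of the 8 genes. A CCAAT box was found in 4 of the 6 genes and in 34.0% of all promoters. The matches began 188 and 133 bases before the start in *Hmgcs1*, 66 and 35 in *Idi1*, 129 in *Srebf2* and 193 in *Insig1*. The letters TCACNCCA, which were chosen after the sequences had been seen, were found in 1 of the 6, *Srebf2*, 156 bases before the start, and in 3.24% of all promoters. A GC box was found in 5 of the 6 against 30.5% of all promoters, and AGGTCA in 0 of the 6 against 14.1%. No match of one motif overlapped a match of another. These matches are letters in a window and not sites at which binding was measured.

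On each of 8 two-colour arrays, 1 RA sample and 1 vehicle sample were hybridised together. RA was labelled with Cy5 on arrays 1, 3, 6 and 8 and with Cy3 on arrays 2, 4, 5 and 7, and arrays 1 to 4 and 5 to 8 lay in the 2 rows of 1 slide. Every value below, unless called a level, is a log2 ratio of RA over vehicle, so that 0 is no difference and 1 a doubling. Neither the labels nor the methods say which pair of arrays shared the same RNA, so each of the 24 ways of pairing the dye orders was fitted, and the largest of the 24 limma p-values was kept. A gene was called when that unadjusted p was under 0.01. The study used p below 0.01 to count genes for its pathway analysis, from a fit with dye-swaps as a blocking variable. Keeping the largest p is stricter: 988 probes passed, against 1081 to 3141 in single pairings. The p-values measure the spread between the means of 4 pairs of arrays, part of which may be technical. Standard errors and confidence intervals come from the same pairing as the p-value, which can differ between genes. Each of the 8 genes had 1 probe, which was well above background for RA and for vehicle on 8 of 8 arrays and saturated on none.

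None of the 8 genes was called: 0 of 8 had an unadjusted p under 0.01 in limma, against 654 of 15159 named genes (4.31%), 5.64% of the 10878 named genes well above background and 988 of 30367 probes (3.25%). At an unadjusted p under 0.05 the count was also 0 of 8, against 13.1% of named genes and 10.8% of probes. Of all probes 0 passed after Benjamini-Hochberg adjustment at 0.05 when the largest p of the 24 pairings was kept, and single pairings gave 0 to 2046. The mean log2 ratios of the 8 genes ran from -0.025 for *Srebf2* to 0.096 for *Fdft1*, with a median of 0.0039, against a median of -0.0046 over all named genes. As folds, the 95% confidence intervals of limma lay between 0.880 and 1.16 for every one of the 8. The genes stood close to 0 with ordinary precision: the median size of their log2 ratio was 0.016 against 0.061 for named genes well above background, while the median standard error was 0.061 against 0.057. No gene of the 8 kept 1 sign on all arrays, which 4.08% of named genes did above 0 and 1.78% below 0.

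**Figure D1:**
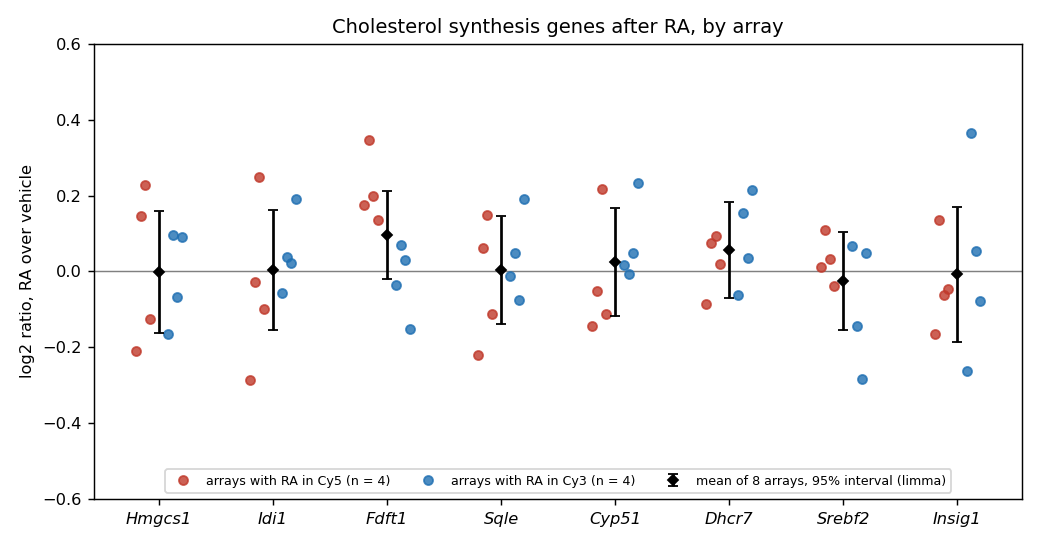
The log2 ratio of RA over vehicle on the y axis for each of the 8 genes, with 1 point per array, coloured by the dye that carried RA, and the mean of 8 arrays with its 95% confidence interval from limma as a diamond and bar. All 8 intervals include 0, and *Fdft1* is the gene whose points do not overlap between the dye orders.

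*Hmgcs1* encodes the cytosolic HMG-CoA synthase, an early enzyme of the mevalonate route. Its log2 ratio on arrays 1 to 8 was -0.21, -0.17, 0.15, 0.096, -0.067, 0.23, 0.090 and -0.13. It was thus above 0 on 4 arrays and below 0 on 4, and the dye orders overlapped. The mean was -0.00074, with a standard error of 0.069 and a 95% confidence interval of -0.16 to 0.16 (limma, adjusted p = 0.998).

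*Idi1*, the isomerase that interconverts the isoprenoid building blocks, lay on arrays 1 to 8 at -0.29, -0.056, -0.028, 0.037, 0.022, 0.25, 0.19 and -0.10. Array 1 was the lowest and array 6 the highest, and again 4 arrays stood on each side of 0. The mean of *Idi1* was 0.0038 with a standard error of 0.068, and the adjusted p was 0.994 in limma.

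*Fdft1* encodes squalene synthase, the first enzyme committed to sterols. It had the highest mean of the 8 genes, 0.096 with a standard error of 0.050 and a 95% confidence interval of -0.021 to 0.21, which is a 1.07-fold difference. It passed under none of the 24 pairings (limma, adjusted p = 0.557). With RA in Cy5 the ratios were 0.18, 0.35, 0.20 and 0.14 on arrays 1, 3, 6 and 8, and with RA in Cy3 they were -0.036, 0.069, 0.030 and -0.15 on arrays 2, 4, 5 and 7. The means were 0.21 and -0.022, and the dye orders did not overlap. An exact two-sided permutation test of 4 arrays against 4 gave p = 0.0286, the smallest it can give, and 0.257 after adjustment over the 9 dye comparisons made. The test ignored that arrays of the 2 dye orders share RNA, so no conclusion is drawn from its p-value. Ratios of the dye orders did not overlap in 16.2% of named genes, and among the 8 genes in *Fdft1* alone, a share no larger than that background. From the Cy5 arrays by themselves *Fdft1* would have passed the threshold, and from the Cy3 arrays it would not.

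*Sqle*, squalene epoxidase, catalyses the first oxygenation of the route and is one of its rate-limiting steps. Its ratios on arrays 1 to 8 were -0.22, -0.011, 0.063, 0.050, -0.075, 0.15, 0.19 and -0.11, with 4 above 0 and 4 below. The mean of *Sqle* was 0.0041 with a standard error of 0.061 (limma, adjusted p = 0.993). *Cyp51*, the lanosterol demethylase, was measured by a probe with 10 spots per array, where the other 7 genes had 2 spots. Its ratios were -0.14, 0.018, -0.052, -0.0065, 0.049, 0.22, 0.23 and -0.11, and their SD over arrays, 0.14, was no smaller than that of *Sqle*, 0.14. The mean of *Cyp51* was 0.025 with a standard error of 0.061 (limma, adjusted p = 0.940).

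*Dhcr7* makes cholesterol from 7-dehydrocholesterol in the last step of one branch of the route. Its ratios on arrays 1 to 8 were -0.085, -0.062, 0.075, 0.15, 0.036, 0.093, 0.22 and 0.021, so that 6 arrays were above 0 and the 2 below it were arrays 1 and 2. The SD over arrays, 0.10, was the lowest of the 8 genes. The mean was 0.056 with a standard error of 0.054 and a 95% confidence interval of -0.070 to 0.18 (limma, adjusted p = 0.794).

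The regulators did not pass the test either. *Srebf2* had ratios of 0.012, 0.066, 0.11, -0.14, -0.28, 0.032, 0.048 and -0.039 on arrays 1 to 8, with a mean of -0.025, a standard error of 0.055 and an adjusted p of 0.933 in limma. Arrays 4 and 5 were its lowest and the other 6 lay between -0.039 and 0.11. *Insig1*, itself a target of SREBP2 and the brake on its release, had the widest spread of the 8 genes, with an SD over arrays of 0.19. Its ratios were -0.17, -0.26, 0.14, 0.37, 0.054, -0.062, -0.078 and -0.047, and its mean was -0.0075 with a standard error of 0.076 and a 95% confidence interval of -0.19 to 0.17 (limma, adjusted p = 0.989). Arrays 1 and 2 were its lowest and arrays 3 and 4 its highest, and neither pair shared a dye order.

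The 8 arrays differed more in the levels of these genes than in their ratios, but levels were not normalised between arrays. The summed log2 level of all named genes ran from 24.2 to 25.2 for RA and from 24.2 to 25.1 for vehicle. For *Insig1* the log2 intensity on array 5 was 8.67 for RA and 8.61 for vehicle, while the other 7 arrays lay between 10.8 and 11.7 in both channels. *Fdft1* stood at 10.6 in both channels of array 5, and *Srebf2* at 11.3 for vehicle and lower still for RA, again the lowest of the 8 arrays. Since both channels were low together, the ratio of *Insig1* on array 5 was still 0.054. Array 5 also had the most outlier spots (2.42% against 0.913% to 1.39% on the other arrays). The share of probes above background depended on the dye, so array 5 is set beside arrays 2, 4 and 7, which also had RA in Cy3. For RA the share was 57.4% on array 5, against 60.5% to 63.5% on those arrays. For vehicle it was 67.6%, against 68.9% to 74.5%. In the 4 fits that left out array 5 together with 1 array of the opposite dye order, *Insig1* lay between -0.042 and 0.0087, *Fdft1* between 0.065 and 0.10, and *Srebf2* between -0.0038 and 0.021.

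**Figure D2:**
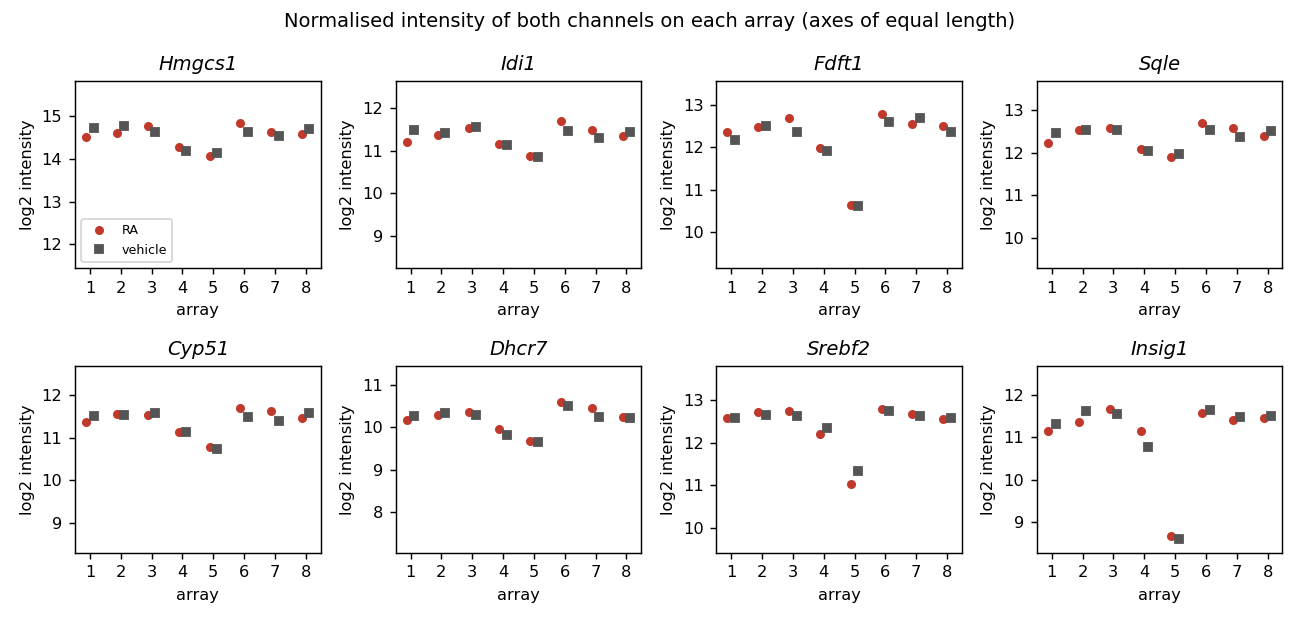
Log2 intensity (y axis, the same length in every panel) of RA and vehicle on each array (x axis) for the 8 genes, normalised within arrays and not between them. RA and vehicle points lie close together on every array, and array 5 is low in both channels, most of all for *Insig1*.

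The ratios of some of the enzymes varied together over the arrays. Among *Hmgcs1*, *Idi1*, *Sqle*, *Cyp51* and *Dhcr7* the 10 pairs had a Pearson r of 0.639 to 0.931 over 8 arrays, whereas the 18 pairs that included *Fdft1*, *Srebf2* or *Insig1* ran from -0.466 to 0.569. The grouping was made after these correlations had been seen, so the gap between the ranges follows from it. These are descriptions, since the points share arrays, labelling reactions and possibly RNA. No share of other gene pairs with such an r is given here, so the values are not called particular to these enzymes. The median ratio of all 8 genes was -0.16, -0.046, 0.093, 0.059, 0.026, 0.17, 0.14 and -0.073 on arrays 1 to 8, lowest on array 1 and highest on array 6. In slide row 1 the median of the 8 gene means was -0.0092 and in row 2 it was 0.046. Exact two-sided permutation tests of row 1 against row 2 gave a lowest p of 0.200, for *Idi1* and *Cyp51*, and 0.643 after adjustment over 9 tests. Those tests took the 8 arrays as independent, although arrays of a dye-swap pair share RNA, so no conclusion is drawn from them.

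Of 10748 other genes searched, those most like the median of the 8 genes over the 8 arrays were *Cdc26* (r = 0.965), *Cct5* (r = 0.951), *Eif2b2* (r = 0.937), *Samd8* (r = 0.930) and *Pank4* (r = 0.926). Genes of the sterol and marker lists used here had been left out of that search beforehand. *Cct5*, a subunit of the cytosolic chaperonin, had a mean ratio of 0.088 with a standard error of 0.060 (limma, adjusted p = 0.677), and *Cdc26*, a subunit of the anaphase-promoting complex, -0.049 with a standard error of 0.054 (limma, adjusted p = 0.826).

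Marker genes of other cell types also varied between arrays, and in other patterns. The median of 10 choroid plexus markers stood at -1.37 and -1.42 on arrays 6 and 7, against 0.078 to 0.52 elsewhere, and these were the arrays on which *Idi1*, *Sqle* and *Cyp51* had their highest ratios. The median of 12 hypothalamic neuropeptide genes stood at -0.59 and -0.62 on arrays 5 and 8, against -0.018 to 0.31 for the remaining 6. The summed log2 level of the choroid plexus markers ran from 12.2 to 17.2 for RA and from 12.1 to 18.3 for vehicle. That of the neuropeptide genes ran from 16.5 to 17.6 and from 16.6 to 17.7, and that of all named genes from 24.2 to 25.2 and from 24.2 to 25.1. The part of these markers in the pattern of the enzymes was not tested.

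**Figure D3:**
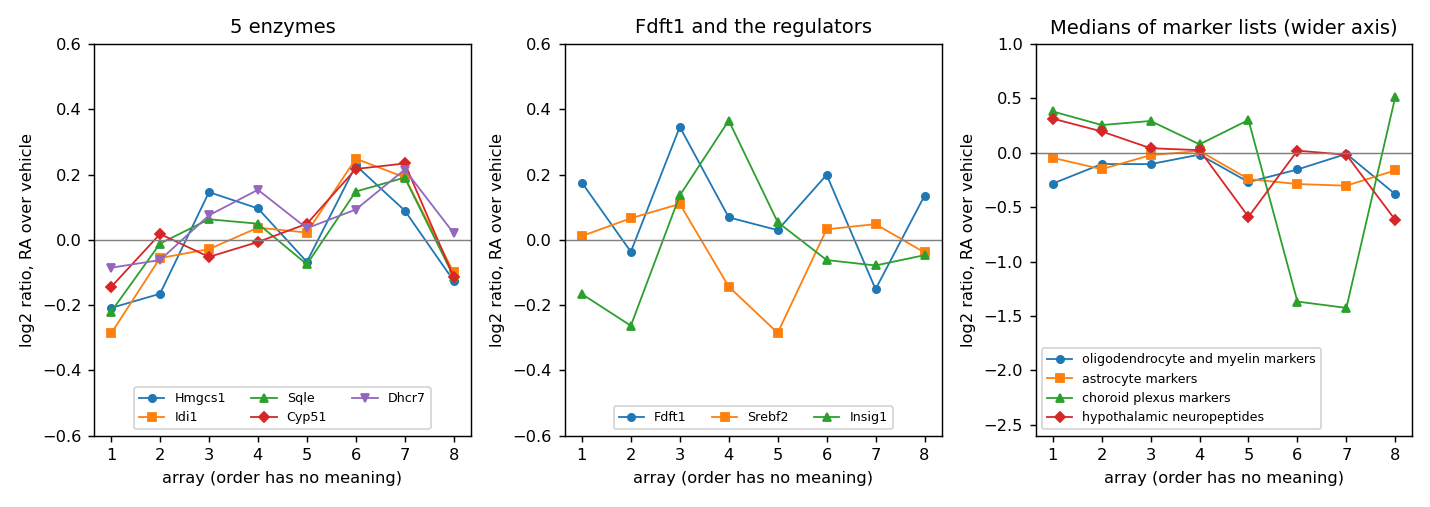
Log2 ratio of RA over vehicle (y axis) on each array (x axis, in an order without meaning): 5 enzymes (left), *Fdft1* and the 2 regulators (middle), and medians of 4 marker lists (right, on a wider axis). The 5 enzymes were all above 0 on arrays 6 and 7, where the choroid plexus markers are at their lowest.

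No other enzyme of the route was called. Of 15 other cholesterol synthesis enzymes, all measured, 0 rose and 0 fell, and their median was -0.017. The highest of the list was *Lss*, lanosterol synthase, at 0.10 with a standard error of 0.052 (limma, adjusted p = 0.533).

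Genes that control SREBP2 or take up sterol gave the same count. Of 11 listed, 9 were measured, 0 rose and 0 fell, with a median of -0.052 and 8 of 9 means below 0, against 7935 of 15159 named genes below 0. *Mbtps1*, the first protease that cuts SREBP, was the highest at 0.0038. In the branches that lead from the same intermediates to prenylated proteins, dolichol and ubiquinone, 7 of 8 listed genes were measured and 0 passed, from *Pdss2* at -0.077 to *Dhdds* at 0.056. In fatty acid synthesis, driven by the related SREBP1, 0 of 10 passed, with a median of -0.00035 and a range from *Scd2* at -0.16 to *Acss2* at 0.14.

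Calls were found among genes that dispose of cholesterol. Of 12 measured genes of sterol export, storage, oxidation and the liver X receptors (LXR), 2 rose and 0 fell, against 3.52% of named genes that rose, and the median was 0.030. *Ch25h* makes 25-hydroxycholesterol, an oxysterol that holds SREBP2 back through INSIG. Its ratios on arrays 1 to 8 were 0.098, 0.088, 0.99, 0.98, 1.86, 1.53, 1.38 and 2.05, above 0 on all 8 arrays, as were 4.08% of named genes. The mean was 1.12 with a standard error of 0.26, which is 2.17-fold (limma, unadjusted p under 0.01, adjusted p = 0.268). The increase was 0.54 in slide row 1 and 1.70 in row 2. It was called in each, but a row held only 4 arrays, so these calls are not a replication. In row 1 the ratio was 0.098 and 0.088 on arrays 1 and 2, and 0.99 and 0.98 on arrays 3 and 4. The call was lost without arrays 3 and 7, 6 and 4, or 6 and 7.

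*Nr1h3*, which encodes the oxysterol receptor LXRα, had ratios of 0.031, 0.054, 0.20, 0.14, 0.19, 0.40, 0.50 and 0.47, all above 0. Its mean was 0.25 with a standard error of 0.072, which is 1.19-fold, and its unadjusted limma p, at 0.00999, lay at the edge of the threshold (adjusted p = 0.307). Among 31 alternatives of processing and sample choice *Nr1h3* was called in 11 and *Ch25h* in 26. The LXR target *Abca1*, a cholesterol exporter, stood at 0.25 with a standard error of 0.12 and did not pass (limma, adjusted p = 0.530), and its partner *Abcg1* stood at -0.0047. *Npc1*, which moves cholesterol out of lysosomes, was the lowest of the list at -0.070.

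Markers of glia and neurons moved in the same samples. Of 12 measured oligodendrocyte and myelin genes, all well above background, 2 fell (*Opalin*, -0.27, and *Ermn*, -0.30), against 0.792% of named genes that fell, with a median of -0.19 that was below 0 on 8 of 8 arrays. Their summed log2 level ran from 16.5 to 17.5 for RA and from 16.6 to 17.6 for vehicle. That of all named genes, not normalised between arrays, ran from 24.2 to 25.2 and from 24.2 to 25.1. Of 7 neuron genes 2 fell (*Nefl*, -0.30, and *Nefm*, -0.39), with a median of -0.14 that was likewise below 0 on 8 of 8 arrays. Of 9 astrocyte genes 2 fell (*Gja1* and *Slc4a4*), with a median of -0.17. Of 6 reactive astrocyte genes 5 rose (*Gfap*, *Vim*, *Serpina3n*, *Lcn2* and *Timp1*), against 3.52% of named genes that rose, with a median of 1.37 over the list. Of 7 microglia genes 3 rose (*Aif1*, *Itgam* and *C1qa*) and 1 fell (*Tmem119*), with a median of 0.37. The summed log2 level of the microglia genes ran from 13.8 to 15.6 for RA and from 12.9 to 14.9 for vehicle. The part of these cells in the values of *Ch25h*, *Nr1h3* and the 8 genes was not tested.

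**Figure D4:**
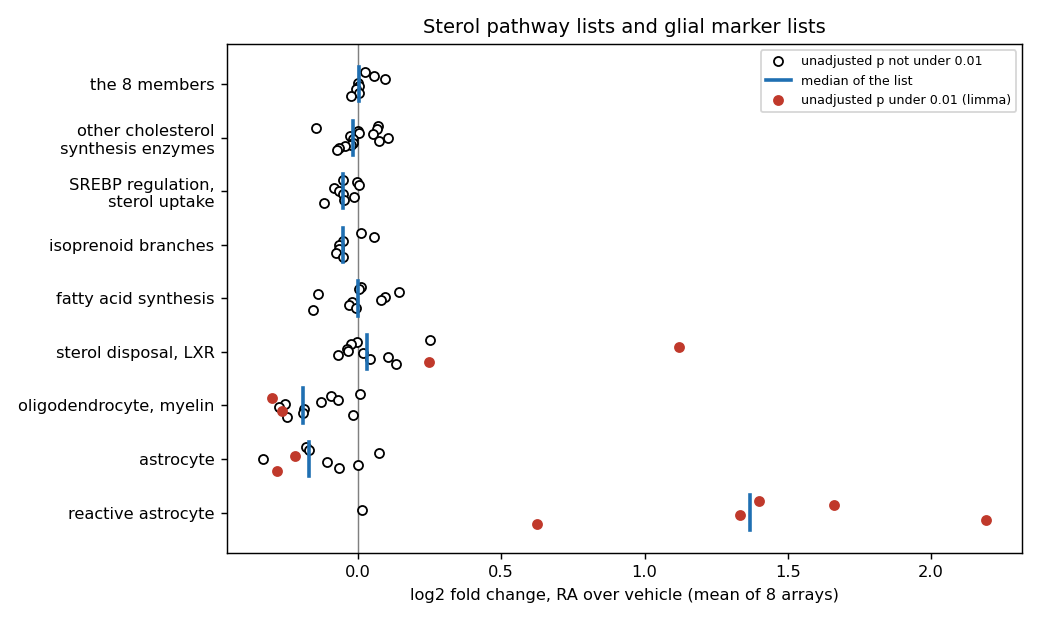
Mean log2 ratio of RA over vehicle (x axis) of each measured gene in the sterol and glial lists (rows), with filled points for a limma unadjusted p under 0.01 and a bar at the median of each list. The 8 genes and the 15 other enzymes lie around 0 with no filled point, and *Ch25h* is the filled point at 1.12 in the list of sterol disposal.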

How the data were processed

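The authors deposited the scanner output of 8 two-colour Agilent arrays (Feature Extraction 10.7.3.1), which gives the Cy3 and Cy5 intensity of each of 62976 spots and a log10 ratio of the Cy5 to the Cy3 signal made by the scanner software. A second deposited table, of the authors' normalised log2 ratios, correlated at 0.985 to 1.00 with ratios computed here without background correction and turned to RA over vehicle, so that its direction and scale could be read, and its column medians lay between -0.0030 and 0.013. The labels name limma, and the methods name loess, averages over identical probes and dye-swaps.

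Here R 4.3.3 and limma 3.58.1 were used on median spot and background intensities, since the files hold no mean spot signals, although mean signals had been planned. Normexp with an offset of 50, removal of control spots and outlier spots, loess within arrays and averaging of spots gave 30367 probes, 20 of which lacked a value on at least 1 array. Through unversioned accessions in the RefSeq annotation of GRCr8, 18006 probes (59.3%) were named, for 15159 genes, of which the brightest probe was taken. For the 2607 genes with several probes the others were not used. Each RA rat was taken to contribute 1 dye-swap pair: 4 pair means were tested against 0, for 24 pairings. Benjamini-Hochberg adjustment ran over all probes. A probe was well above background where the scanner marked at least 0.5 of its spots so. The number of arrays limits the precision.

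The genes and lists were chosen with earlier results of these data known, so counts in them are descriptions. The genes named were the 8 genes, the highest and lowest of each sterol list, called sterol genes and the 5 genes most like the median, apart from a few genes that are not reported here. *Abca1*, *Abcg1* and the called glial and neuron markers were chosen after their values were seen. Listed genes without a named probe were left out. The scripts were tested on simulated data.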

Additional observations from a re-analysis of the deposited data

How the results depend on the processing

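For the 8 genes, 0 remained the number called in 30 of 31 alternatives, and their median stayed between -0.044 and 0.061 in all 32 alternatives run on it, within the SD of 0.11 of that median over arrays. The exception was the Cy5 arrays alone, with 1 called gene, *Fdft1* (0.21). *Dhcr7* was above 0 in all 32. The other 7 genes changed sign somewhere, none past the threshold. The cause of these changes was not tested. With Agilent's own log ratio *Idi1* was -0.021, *Sqle* -0.010 and *Mbtps1* -0.0099. With plain subtraction *Insig1* was 0.0045, with scale normalisation *Idi1* -0.0084 and *Sqle* -0.0023, and in the deposited table *Hmgcs1* 0.0011. With RA in Cy3 only *Fdft1* was -0.022, *Insig1* 0.020, *Pdss2* 0.052 and *Npc1* 0.016. With RA in Cy5 only *Hmgcs1* was 0.010, *Idi1* -0.041, *Sqle* -0.030, *Cyp51* -0.023, *Srebf2* 0.029, *Mbtps1* -0.043 and *Dhdds* -0.084. In slide row 1 *Idi1* was -0.083, *Sqle* -0.030, *Cyp51* -0.046, *Srebf2* 0.011, *Insig1* 0.018 and *Mbtps1* -0.0014, and in row 2 *Hmgcs1* was 0.031.

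Over all probes 988 were called, against 244 with plain subtraction, 330 with Agilent's log ratio, 1788 with pairs as a random block, 2169 and 2320 with RA in Cy5 or Cy3 only, 2485 with 8 independent arrays and 3112 with a slide row term. After adjustment 0 passed, against 6 with scale normalisation, 2 with Cy3 only, 75 and 640 in slide rows 1 and 2, 511 with the random block, 934 with 8 independent arrays, 2061 with the slide row term and 21 without arrays 1 and 2, and 0 of the 8 genes in any of these. The sterol disposal list then held 1 (random block, 8 independent arrays) or 2 (row 2, slide row term). Leaving out 1 array of each dye order gave 456 to 1110 probes (456 without 8 and 5, 533 without 6 and 5, 541 without 8 and 7, 604 without 6 and 7) and 0 to 0 of the 8 genes. In these 16 fits *Hmgcs1* ran from -0.055 to 0.061, *Idi1* from -0.068 to 0.062, *Fdft1* from 0.059 to 0.13, *Sqle* from -0.051 to 0.055, *Cyp51* from -0.041 to 0.059, *Dhcr7* from 0.023 to 0.099, *Srebf2* from -0.062 to 0.021, *Insig1* from -0.094 to 0.062 and *Mbtps1* from -0.029 to 0.040. The fatty acid list then held 0 to 1 called genes and the sterol disposal list 0 to 2. Otherwise the sterol disposal list held 2 or 3, but 0 with plain subtraction or Agilent's log ratio, and 1 with 1 dye order, the deposited table, bright probes only, outlier spots kept or slide row 1. The list of SREBP regulation held 1 with 8 independent arrays, Cy3 only or a slide row term, the isoprenoid list 1 with Cy5 only and the fatty acid list 1 with the slide row term. These lists and their genes were tested under each alternative after the data had been seen. The labels give the arrays no numbers shared between dye orders, so no pairing could be read from them. The ratios did lie close on some arrays. The median of the neuropeptide genes was 0.31 and 0.20 on arrays 1 and 2, and 0.042 and 0.024 on 3 and 4. It was 0.020 and -0.018 on arrays 6 and 7, and -0.62 and -0.59 on 8 and 5. Whether these arrays share RNA was not tested. Pairing arrays 1-2, 3-4, 6-7 and 8-5 alone gave 1081 probes and 0 of the 8 genes. With 4 pairs, an exact sign-flip test cannot go below p = 0.125.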
